A study of Mus musculus with 6 samples.

Results

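The Cyp4f genes encode a subfamily of cytochrome P450 enzymes, and 7 of them were followed here across 6 arrays of mouse cerebellum: Cyp4f13, Cyp4f14, Cyp4f15, Cyp4f16, Cyp4f17, Cyp4f18 and Cyp4f39. They are 7 of 22180 genes tested, and all 7 had a probe set annotated to that gene alone. The set was selected on a measured value, the higher level of Cyp4f13 on the knockout arrays; the other 6 were then chosen by their family name. The values of Cyp4f13 in this contrast are therefore a description and carry no test, and the question asked of the data is whether the other family members and the genes beside them on the chromosome were higher too.

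Whole cerebellum was taken from mice at postnatal day 7. On 3 arrays (wild type) the animals carried the Cre recombinase transgene Math1Cre with wild-type Crebbp, and on 3 arrays (knockout) they were Math1Cre::CrebbpFl/Fl, with both Crebbp alleles floxed, so Cre is common to all 6. Math1 (Atoh1) drives Cre in granule neuron precursors, while whole cerebellum also holds cells outside that lineage, in which Crebbp is left intact. In bulk tissue, fewer cells of a type and less RNA per cell cannot be told apart. The labels do not say whether each array had its own animal or whether the groups were littermates, so p-values measure the spread between these samples, which may be technical.

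CYP4F enzymes sit in the endoplasmic reticulum and hydroxylate long-chain fatty acids at or near the omega carbon, the end far from the acid group. Their known substrates include arachidonic acid and leukotriene B4, an inflammatory lipid that hydroxylation helps to inactivate. They draw electrons from cytochrome P450 reductase, with cytochrome b5 as a possible second donor. In the mouse most of the genes lie in 1 cluster on chromosome 17, among zinc finger genes, and Cyp4f18 lies apart on chromosome 8.

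The promoter of Cyp4f13 is shown because this is the member whose level differed most, and because a motif in it recurs in the windows of other members. RefSeq promoter windows of 300 bases (250 before the annotated start and 50 after it, build GRCm38.p6) were found for 6 of the 7 members; Cyp4f17 had no entry. The window of Cyp4f13 is chr17:32947312-32947611 on the minus strand, printed 5′ to 3′, with a CCAAT box (here as ATTGG, its other strand) and a GC box (GGGCGG, here on its other strand) in capitals.
Cyp4f13: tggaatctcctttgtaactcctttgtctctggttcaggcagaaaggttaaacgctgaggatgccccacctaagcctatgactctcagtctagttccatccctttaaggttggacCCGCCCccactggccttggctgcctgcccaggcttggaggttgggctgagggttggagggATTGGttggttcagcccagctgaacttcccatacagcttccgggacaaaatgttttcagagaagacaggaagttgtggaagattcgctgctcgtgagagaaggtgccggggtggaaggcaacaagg

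A CCAAT box (CCAAT on either strand), a motif added to the search after the sequences were read, was found in the first listed window of 5 of the 6 members, all but Cyp4f39, and in 37.4% of all 32851 windows of this length. The stretches of 60 bases around the box nearest to the start are set side by side, with the box in capitals. They come from chr17:32947408-32947467 (minus strand), chr17:32917377-32917436 (minus), chr17:32685551-32685610 (plus), chr17:32536504-32536563 (plus), chr17:32621199-32621258 (plus) and chr8:72009645-72009704 (minus).
Cyp4f13: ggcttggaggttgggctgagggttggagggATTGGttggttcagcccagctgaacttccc
Cyp4f14: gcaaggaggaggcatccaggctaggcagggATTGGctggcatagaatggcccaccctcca
Cyp4f15: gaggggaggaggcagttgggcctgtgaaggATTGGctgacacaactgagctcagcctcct
Cyp4f16: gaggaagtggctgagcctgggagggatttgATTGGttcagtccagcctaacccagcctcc
Cyp4f37: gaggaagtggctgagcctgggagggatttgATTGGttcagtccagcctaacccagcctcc
Cyp4f18: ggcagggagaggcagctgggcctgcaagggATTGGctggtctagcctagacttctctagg

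The box began 76 bases before the start in Cyp4f13, 78 in Cyp4f15, 50 in Cyp4f14, 48 in Cyp4f18 and 23 in Cyp4f16. For Cyp4f14 the distance depends on the start used. Its later windows put the same box at 64 and 77 bases, and the last holds a different box at 24. The stretches of Cyp4f16 and of its relative Cyp4f37, which is no member of the set, are the same in all 60 bases. Cyp4f40, also outside the set, had no CCAAT box in either of its listed windows. A GC box was present in the windows of Cyp4f13, Cyp4f15, Cyp4f16 and Cyp4f18, and in 35.7% of all windows. CREBBP was named for its binding to CREB, which recognises the cAMP response element TGACGTCA. Neither this element (in 1.79% of all windows) nor its half-site TGACG, which lies inside it (20.8%), was found on either strand in any window of the 6 members, and the same held for the nuclear receptor half-site AGGTCA (16.3%) and the TATA box TATAAA (13.6%). The AP-1 motif TGANTCA (7.81%) was found in Cyp4f16 and in no other member. These matches describe the letters of the windows and show no binding.

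Cyp4f13 was brighter on the knockout arrays. Its log2 values were 7.43, 7.33 and 7.32 in wild type, compared with 8.25, 8.53 and 8.65 in knockout. The groups lay far apart, and the knockout arrays were also more spread. The means were 7.36 ± 0.06 and 8.48 ± 0.21 (SD, n = 3 each), a log2 change of 1.12 (SE 0.10) or 2.17-fold, with a 95% interval of 0.90 to 1.34 on the log2 scale. The absolute change was larger than that of 99.9% of the genes tested. This is the value the set was selected on. Its mean brightness was ordinary, with 51.6% of the tested genes dimmer.

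Crebbp itself was checked first as the targeted gene, and all 6 arrays lay on the side of their label, at 11.90 to 11.99 in wild type and 11.32 to 11.46 in knockout.

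Cyp4f13 was the only 1 of the 7 members past the threshold (limma, adjusted p under 0.05 over all genes), where 6.67% of all genes passed in either direction and 2.72% were called higher in the knockout. The selection of the set fixes that call, so nothing is read from the count. Of the other 6 members, 0 passed, and 2 had an unadjusted p under 0.05, which 20.4% of all genes had. Their median log2 change was 0.22, against -0.0028 over all genes, and 4 of the 6 changes were above 0, as were 49.1% of all genes. With the Cyp4f genes outside the set included, the median of the 9 other than Cyp4f13 was 0.15. Of these 9 changes, 6 were above 0.

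**Figure D1:**
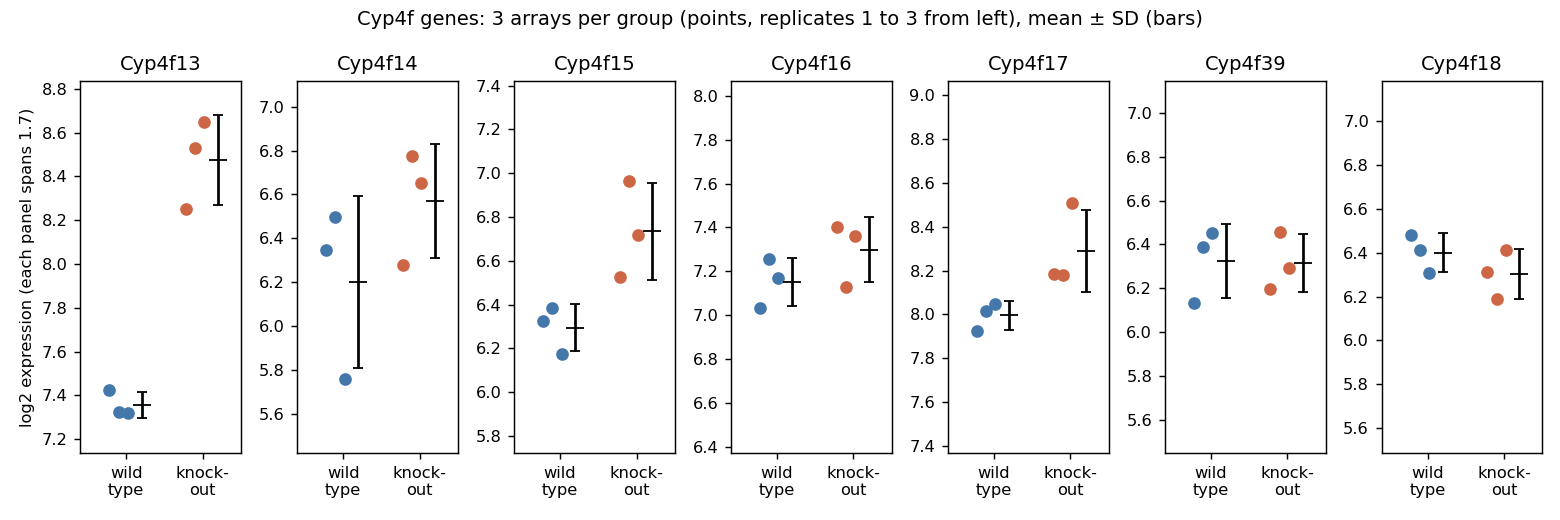
Log2 expression of the 7 members on the 3 wild-type and 3 knockout arrays (points, replicates 1 to 3 from left; bars are mean ± SD, n = 3), all panels spanning the same number of log2 units, each around its own midpoint. In Cyp4f13, Cyp4f15 and Cyp4f17 every knockout array lies above every wild-type array. The gap is widest in Cyp4f13 (7.43 against 8.25), on which the set was selected. In the other 4 the groups overlap.

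Cyp4f15, which lies across a group of zinc finger genes from Cyp4f13, came nearest to the threshold. Its wild-type arrays read 6.32, 6.38 and 6.17 and its knockout arrays 6.52, 6.97 and 6.72. Every knockout array was above every wild-type array, and the means were 6.29 ± 0.11 and 6.74 ± 0.22 (SD, n = 3 each). The log2 change was 0.44 (SE 0.12, 95% interval 0.17 to 0.71, limma adjusted p = 0.0598).

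Cyp4f17 showed the same order of groups with a smaller difference. Its wild-type values were 7.92, 8.02 and 8.05, and its knockout values 8.19, 8.18 and 8.51. The groups did not overlap, and knockout replicate 3 stood above the other two knockout arrays. The change was 0.29 (SE 0.09, 95% interval 0.09 to 0.50, limma adjusted p = 0.0978). Cyp4f15 and Cyp4f17 are 2 of the 6 members other than Cyp4f13 whose knockout values all lay above the wild-type values, a pattern that 11.8% of all genes had.

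Cyp4f14, the direct neighbour of Cyp4f13 and a hydroxylase of leukotriene B4 known mainly from liver, was too variable to place. It read 6.34, 6.50 and 5.76 in wild type and 6.28, 6.78 and 6.65 in knockout. Wild-type replicate 3 was the lowest of the 6, and knockout replicate 1 lay below the other two wild-type arrays. The change was 0.37 (SE 0.19, 95% interval -0.06 to 0.79, limma adjusted p = 0.322), and it was 0.15 without wild-type replicate 3. The interval spans 0 and also holds the changes of Cyp4f15 and Cyp4f17.

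Cyp4f16 read 7.03, 7.25 and 7.17 in wild type and 7.40, 7.13 and 7.36 in knockout. Knockout replicate 2 lay among the wild-type arrays. The change was 0.15 (SE 0.10, 95% interval -0.07 to 0.36, limma adjusted p = 0.467), and it was -0.08 without the arrays high in the choroid plexus gene Ttr, described further on.

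Cyp4f39, which makes the omega-hydroxylated very long fatty acids of the skin barrier, stands at the far end of the cluster from Cyp4f13. Its arrays read 6.13, 6.39 and 6.45 in wild type and 6.20, 6.46 and 6.29 in knockout. The groups covered nearly the same range. The change was -0.01 (SE 0.11, 95% interval -0.26 to 0.24, limma adjusted p = 0.977).

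Cyp4f18, the leukotriene B4 hydroxylase of neutrophils and other myeloid cells, read 6.48, 6.41 and 6.31 in wild type and 6.31, 6.19 and 6.41 in knockout. The groups overlapped. The change was -0.10 (SE 0.10, 95% interval -0.31 to 0.12, limma adjusted p = 0.665). Of 9 listed neutrophil and blood markers 7 were measured, all of them neutrophil genes, while the red-cell genes Alas2 and Hbb-bt were not. Of the 7, 0 passed and 1 had an unadjusted p under 0.05 (limma), which 20.4% of all genes had. Their summed level (log2 of the sum of linear values) was 8.86 to 8.99 in wild type and 8.84 to 8.99 in knockout. The group means of S100a8, Camp, Mmp8 and Retnlg lay below 6.02, the 25th percentile of all values, and those of S100a9, Ngp and Ltf above it. At such levels the sum may not show a difference in neutrophils.

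Cyp4f18, Cyp4f39, Cyp4f14 and Cyp4f15 are dim on these arrays: 24.9%, 24.2%, 25.5% and 27.7% of the tested genes were dimmer. The figure was 40.9% for Cyp4f16 and 55.0% for Cyp4f17. The values come with no detection call, and background signal shrinks the change of a dim gene. Probe sequences were not used here, so signal from one family member on the probes of another cannot be told apart from its own.

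The other Cyp4f genes on the array, which are outside the set, did not pass either. Cyp4f41-ps, a transcribed pseudogene directly beyond Cyp4f13, read 5.64, 5.42 and 5.42 in wild type and 5.71, 5.71 and 5.82 in knockout. Its knockout arrays were all above its wild-type arrays, by a narrow margin and at a low brightness. The change was 0.26 (SE 0.11, 95% interval 0.02 to 0.50, limma adjusted p = 0.214). Cyp4f37 had a change of -0.18 (SE 0.15, adjusted p = 0.583) and Cyp4f40 one of 0.13 (SE 0.17, adjusted p = 0.754).

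In gene order the cluster runs from Cyp4f39 to Cyp4f13 and holds 12 tested genes: Cyp4f39, Cyp4f17, Cyp4f16, Cyp4f37, Cyp4f40, Cyp4f15, then the zinc finger genes Zfp871, Zfp811, Zfp799 and Zfp870, then Cyp4f14 and Cyp4f13. The 4 zinc finger genes separate the Cyp4f genes into a block of 6 and a pair. Of these 4, 0 passed (limma), 1 had an unadjusted p under 0.05, and the median change was 0.02. Zfp871 differed by 0.02 (95% interval -0.10 to 0.15), Zfp811 by 0.02 (-0.15 to 0.18) and Zfp799 by -0.10 (-0.29 to 0.08). Zfp870, the one next to Cyp4f14, read 7.96, 8.25 and 8.19 in wild type and 8.27, 8.60 and 8.36 in knockout. Its groups missed overlapping by a small margin, and its change was 0.28 (SE 0.10, 95% interval 0.05 to 0.50, limma adjusted p = 0.150). The intervals of all 4 zinc finger genes end well below the change of Cyp4f13, so a rise of that size was not measured there.

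**Figure D2:**
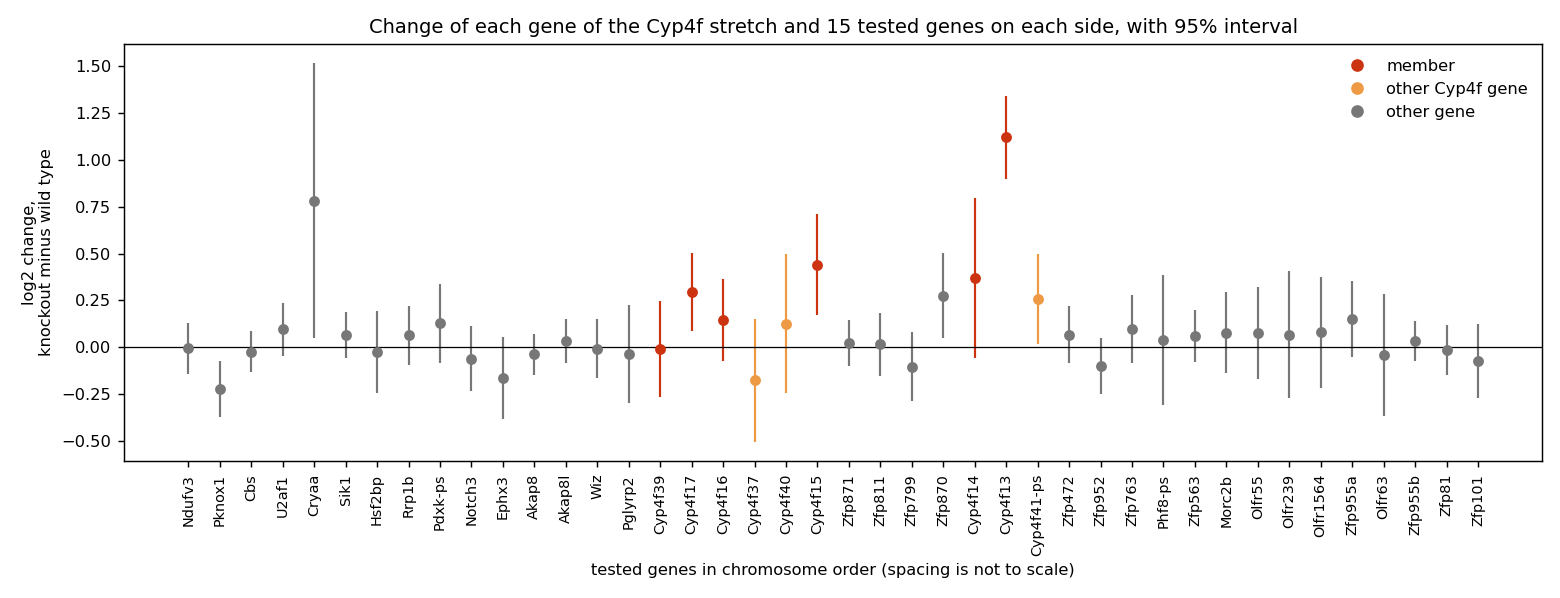
Log2 change (knockout minus wild type) with its 95% interval for the 12 tested genes from Cyp4f39 to Cyp4f13 and 15 tested genes on each side, in chromosome order and with spacing not to scale. Cyp4f13 stands at 1.12; the genes directly beside it lie at 0.37 (Cyp4f14) and 0.26 (Cyp4f41-ps), and the zinc finger genes Zfp871 and Zfp811 at 0.02. The wide interval at 0.78 is Cryaa.

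Beyond the cluster, of the 15 tested genes on the Cyp4f39 side, 0 passed (limma) and 2 had an unadjusted p under 0.05, with a median change of -0.01. The nearest of them, Pglyrp2, an amidase that cleaves peptidoglycan, differed by -0.04 (adjusted p = 0.915). Of the 15 on the Cyp4f13 side, 0 passed and 1 had an unadjusted p under 0.05, with a median of 0.07. The largest change among these 30 genes was that of Cryaa, the lens protein alpha A-crystallin, at 0.78 (SE 0.33, adjusted p = 0.215). Its arrays read 7.26, 6.96 and 7.90 in wild type and 8.35, 7.33 and 8.77 in knockout, high on the knockout arrays 1 and 3 and within the wild-type range on knockout replicate 2, without which its change was 1.19 (adjusted p = 0.0197); its 95% interval with all arrays, 0.05 to 1.51, holds the change of Cyp4f13.

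Around Cyp4f18, the 5 tested genes on each side included 1 that fell, Fcho1, which bends membranes at the start of clathrin endocytosis. It differed by -0.34 (SE 0.06, limma adjusted p = 0.00871), and 0 rose. The direct neighbours of Cyp4f18 were Zfp961, with a change of 0.07 (adjusted p = 0.512), and the olfactory receptor gene Olfr372, with one of 0.17 (adjusted p = 0.769). Fcho1 had changes of -0.28 (adjusted p = 0.0641) with the mean of the choroid plexus markers in the model and -0.25 (adjusted p = 0.327) without the arrays with Ttr above 10.

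Choroid plexus, a secretory tissue beside the cerebellum, was present to unequal extents. Ttr, its transthyretin gene, read 12.30, 8.08 and 8.91 in wild type and 13.77, 9.19 and 13.92 in knockout. It was high on wild-type replicate 1 and on knockout replicates 1 and 3. Of 12 listed choroid plexus markers 10 were measured, and 0 passed (limma). An unadjusted p under 0.05 was found for 6 of them, and for 20.4% of all genes. Their summed level was 10.70 to 12.68 in wild type and 10.84 to 14.28 in knockout. Cyp4f13 read 8.53 on knockout replicate 2, where Ttr was low, and its change was 1.09 with the mean of the choroid plexus markers in the model and 1.21 without the 3 arrays with Ttr above 10. In those same settings the changes were 0.57 and 0.69 for Cyp4f15, 0.44 and 0.65 for Cyp4f14, and 0.19 and 0.15 for Cyp4f17. The estimates of Cyp4f15 and Cyp4f14 were larger than with all arrays and that of Cyp4f17 smaller, and none of these 3 passed in either setting (limma adjusted p from 0.0657 to 0.726). The difference of Cyp4f16 was 0.06 with the markers in the model and -0.08 without the arrays, that of Cyp4f39 0.12 and 0.04, and that of Cyp4f18 -0.21 and -0.17, so Cyp4f16 and Cyp4f39 turned sign; none of these 3 passed either (adjusted p from 0.408 to 0.971). The fit without the 3 arrays holds 1 knockout array, which is assumed to vary like the others.

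**Figure D3:**
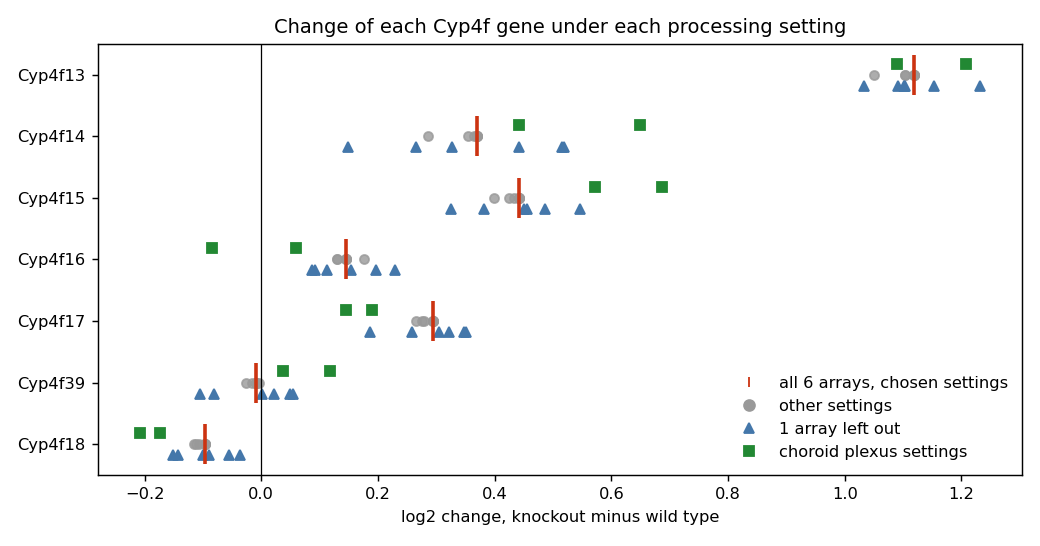
Log2 change (knockout minus wild type) of the 7 members with all 6 arrays at the chosen settings (red bars), under other settings (circles), with 1 array left out (triangles) and under the choroid plexus settings (squares). Cyp4f13, on whose change the set was selected, runs from 1.03 to 1.23. The highest value of any other member is 0.69 (Cyp4f15). The selection favours this gap, so nothing is read from it.

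Granule neuron markers moved with the groups. Of 8 such markers 6 fell and 0 rose (limma), and their summed level was 13.87 to 14.05 in wild type and 13.36 to 13.49 in knockout. Of 8 granule precursor markers 2 rose (Atoh1 by 0.52 and Ccnd1 by 0.24) and 1 fell (Zic1, by -0.24). Of the 8 changes 6 were above 0, with a median of 0.12. The summed level was 13.95 to 13.97 in wild type and 13.87 to 13.96 in knockout. It mostly follows the brightest of them, Zic1 (means of 13.12 and 12.88). Of 8 Bergmann glia and astrocyte markers 2 rose, with a summed level of 14.90 to 14.93 in wild type and 14.96 to 15.07 in knockout. Of 7 oligodendrocyte markers 1 fell and all 7 had an unadjusted p under 0.05 (median -0.46), with summed levels of 12.62 to 12.72 and 12.02 to 12.59. The summed levels of 8 meningeal and fibroblast markers (12.16 to 12.25 and 12.30 to 12.80) and of 5 Purkinje cell markers (13.39 to 13.51 and 13.55 to 13.60) did not overlap between the groups either, while 0 of these markers passed, with 5 and 1 at an unadjusted p under 0.05. Of all genes, 6.67% were called in either direction and 20.4% had an unadjusted p under 0.05 (limma). The Purkinje cell count of 1 in 5 is near that second share. For summed levels that do not overlap, no share over all genes was computed. The part of these cell types in the levels of the Cyp4f genes was not tested. For 7 microglia, 8 endothelial, and 8 pericyte and smooth muscle markers the summed levels of the groups overlapped and 0 passed, with 0, 1 and 0 at an unadjusted p under 0.05.

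Leaving out any 1 array kept the change of Cyp4f13 between 1.03 and 1.23. Cyp4f15 passed in 3 of 16 other settings (adjusted p from 0.0426 to 0.152 over all of them). It passed without knockout replicate 1 (change 0.55, adjusted p = 0.0426), with dim genes left out (0.0478) and with the replicate number as a block (0.0477), so its place beside the threshold depends on such choices. Cyp4f17 and Cyp4f14 passed in none of the 16.

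The wider P450 superfamily gives the family a frame. Of 98 Cyp genes tested, 3 rose and 3 fell (limma), a share of 6.12% against 6.67% of all genes, and the median change was -0.01. The rises were Cyp4f13, Cyp11a1, the side-chain cleavage enzyme that opens steroid synthesis (0.91, SE 0.06), and Cyp4v3, a fatty acid hydroxylase whose human counterpart is mutated in a corneoretinal dystrophy (0.35, SE 0.08, adjusted p = 0.0399). The falls were Cyp2f2 (-0.38, SE 0.08, adjusted p = 0.0213), Cyp51, the lanosterol demethylase of cholesterol synthesis (-0.29, SE 0.07, adjusted p = 0.0354), and Cyp2d22 (-0.45, SE 0.11, adjusted p = 0.0382), which was named after its values were seen. The call of Cyp4f13 and its high rank follow from the selection of the set. Of the 88 Cyp genes other than Cyp4f, 2 rose and 3 fell (5.68%). Ranked by change, Cyp4f13, Cyp11a1, Cyp4f15 and Cyp4f14 were the highest 4 of the 98. The place of Cyp4f14 did not hold in every subset of arrays: its change was 0.15 when wild-type replicate 3 was left out and 0.27 when knockout replicate 2 was, below that of Cyp4v3 in the same fits.

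Leaving out single arrays left 3 or 4 of the 98 past the threshold. Cyp11a1 passed in all 16 other settings. Cyp4v3 missed the threshold when replicate 1 or 3 of the wild type was left out (adjusted p = 0.153 and 0.0963) or replicate 1 or 2 of the knockout (0.124 and 0.102). Cyp51 missed it when any wild-type array or knockout array 1 or 3 was left out (0.0735 to 0.110), Cyp2f2 when wild-type array 2 or 3 or knockout array 1 or 3 was (0.0556 to 0.0736), and Cyp2d22 for every array except wild-type replicate 3 (0.0549 to 0.112). Without the arrays with Ttr above 10, which leaves 1 knockout array, Cyp11a1 (0.82) was past the threshold and Cyp4v3, Cyp2f2, Cyp51 and Cyp2d22 were not; the change of Cyp51 was then -0.16 (adjusted p = 0.568) and that of Cyp2d22 -0.26 (adjusted p = 0.481).

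**Figure D4:**
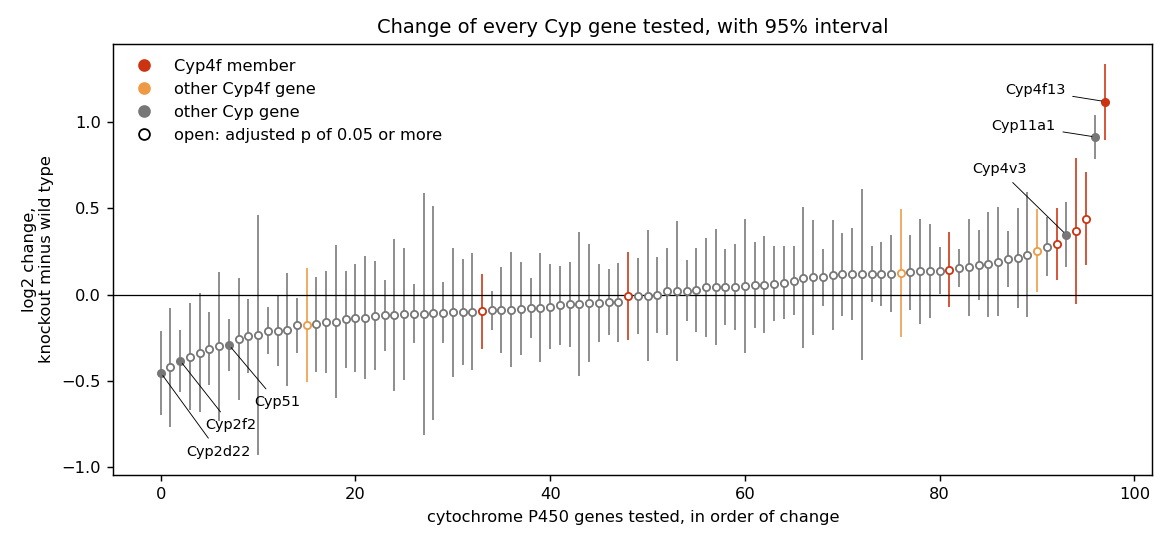
Log2 change (knockout minus wild type) with its 95% interval for the 98 Cyp genes tested, in order of change; filled points passed at an adjusted p under 0.05 (limma) and Cyp4f genes are coloured. Most points lie within their interval of 0. Cyp4f13 (1.12), on which the set was selected, and Cyp11a1 (0.91) stand above the rest.

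Genes of the lipid pathway around the CYP4F enzymes were called at a share near that of all genes. Of 66 genes on 6 lists, 59 were measured, 2 rose and 1 fell (limma; 5.08% against 6.67% of all genes), with a median change of 0.02. Of 11 measured CYP4 relatives outside the set, 1 rose, Cyp4v3. Cyp4x1 (0.12, adjusted p = 0.410), Cyp4b1 (0.13, adjusted p = 0.535) and Cyp4a12a (0.18, adjusted p = 0.549) did not pass. Of 6 measured redox partners 0 passed, and 2 had an unadjusted p under 0.05: Cyb5r3, a cytochrome b5 reductase, differed by 0.18 (SE 0.05, adjusted p = 0.0551) and its relative Cyb5r1 by 0.21 (SE 0.07, adjusted p = 0.101). Cyb5a, cytochrome b5 itself, differed by 0.05 (adjusted p = 0.695), and Cyb5b, its mitochondrial form, by -0.04 (adjusted p = 0.778). The reductase gene Por was not analysed here.

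Of 10 genes for arachidonate release and leukotriene synthesis 0 passed (limma), with 1 at an unadjusted p under 0.05 and a median of 0.01. Ltc4s, which makes leukotriene C4, differed by 0.19 (adjusted p = 0.242), the dipeptidase gene Dpep1 by 0.13 (adjusted p = 0.531), Mgst3 by -0.04 (adjusted p = 0.780) and the phospholipase gene Pla2g6 by 0.03 (adjusted p = 0.871). Of 4 measured receptors for leukotrienes and hydroxylated arachidonate 0 passed and 0 had an unadjusted p under 0.05. Ltb4r1, the leukotriene B4 receptor, differed by -0.08 (95% interval -0.29 to 0.13), Gpr75 by -0.11 (-0.29 to 0.07), and the cysteinyl leukotriene receptors Cysltr1 and Cysltr2 by -0.04 and -0.10.

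Of 18 measured genes for prostaglandins, lipoxygenases and epoxides, 1 rose: Hpgd, the dehydrogenase that inactivates prostaglandins, went from 8.30 ± 0.23 to 8.84 ± 0.09 (SD, n = 3 each; change 0.54, SE 0.10, limma adjusted p = 0.0145). It passed whichever array was left out, and had an adjusted p of 0.0677 with a prior variance that ignores brightness and 0.0552 without the arrays with Ttr above 10. The epoxide hydrolases Ephx1 and Ephx2 differed by 0.33 (SE 0.15, adjusted p = 0.259) and 0.25 (SE 0.11, adjusted p = 0.225), and Aloxe3, an epidermal lipoxygenase, by -0.19 (adjusted p = 0.215). Of 10 measured genes for omega-oxidation, very long fatty acids and their nuclear receptors 1 fell, Abcd2, a peroxisomal fatty acid transporter (-0.31, SE 0.08, adjusted p = 0.0412). It missed the threshold when any wild-type array or knockout array 1 or 3 was left out (adjusted p from 0.0708 to 0.139), and differed by -0.17 (adjusted p = 0.219) with the mean of the choroid plexus markers in the model. Elovl1 and Elovl4, which lengthen fatty acids, differed by 0.13 and -0.08, and the lipase cofactor gene Abhd5 by 0.10, with adjusted p-values of 0.282, 0.470 and 0.366.

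Genes whose pattern over the 6 arrays was most like that of Cyp4f13 were found by Pearson's r. The 6 arrays fall into 2 groups that differ in Cyp4f13, so r is a description only, and 617 genes had an r over 0.9. The highest 5 were Man2b1, a lysosomal mannosidase (r = 0.995), Glmp, a lysosomal membrane protein (0.994), Napepld, a phospholipase that makes fatty acid ethanolamides (0.993), P4ha1, a subunit of collagen prolyl hydroxylase (0.992), and the olfactory receptor gene Olfr147 (0.991). Their changes were smaller than that of Cyp4f13, at 0.39, 0.39, 0.33, 0.17 and 0.52. Within the family, r with Cyp4f13 was 0.89 for Cyp4f15, 0.88 for Cyp4f41-ps, 0.84 for Cyp4f17, 0.65 for Cyp4f14, 0.47 for Cyp4f16, -0.01 for Cyp4f39 and -0.43 for Cyp4f18; outside the set it was also 0.43 for Cyp4f40 and -0.52 for Cyp4f37.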

How the data were processed

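RNA from 6 cerebellum samples was hybridised to Affymetrix expression arrays. Per the labels' protocols, Trizol was used for extraction and the GeneChip WT PLUS kit for labelling. The deposited values are log2 expression per probe set; the submitters' processing notes name RMA and oligo and no version. Any filter and the genome build were not given in the sources used here. No background correction or normalization was added. Sequencing depth has no counterpart here, and the 3 arrays a group limit the precision.

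Of 41345 probe sets, 23521 carried 1 gene symbol, 1814 several and 16010 none; a gene with several was represented by its brightest on average (22180 genes). Each member and each other Cyp4f gene had 1 such probe set. RefSeq's gene table (GRCm38.p6) gave gene order. The knockout was set against the wild type by limma 3.58.1 under R 4.3.3 (lmFit and eBayes, its variance prior following brightness), two-sided. Benjamini-Hochberg adjustment covered all 22180 genes, with a threshold of 0.05. The fit was tested on simulated data. Changes are knockout minus wild type, and intervals are 95% intervals of the fit. Python 3.11.15, pandas 2.3.3 and matplotlib 3.10.9 were used.

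The members and lists were chosen with earlier results of these data known. Named genes are the members, other Cyp4f genes, genes between them, the nearest and the called genes around them, up to 4 genes of smallest p per list and the 5 most like Cyp4f13. Alternatives were other priors, a filter on dim genes (25th percentile, 6.02), median centring, array weights, quantile normalization, a replicate block, choroid plexus settings, single probe sets, other thresholds and each array left out.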

Additional observations from a re-analysis of the deposited data

How the results depend on the processing

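The change of Cyp4f13, on which the set was selected, kept its direction in all 16 other settings (1.03 to 1.23, both ends from single arrays left out). The other priors, the dim filter, the replicate block and single probe sets cannot move this estimate, which stayed at 1.12. In those settings the other genes can change their side of the threshold but not their direction. Over 970 values of 61 other named genes, 807 kept their direction and side of the threshold, 126 were no longer past it, 8 came past it, and 29 turned direction, all of them on genes not past the threshold with or without the alternative. With the choroid plexus markers in the model the turned values were 0.12 for Cyp4f39, 0.062 for Cysltr2, -0.0057 for Dpep1, -0.043 for Pla2g6 and -0.031 for Zfp871. Without the arrays with Ttr above 10 they were 0.047 for Cyb5b, -0.059 for Cyp4b1, -0.084 for Cyp4f16, 0.037 for Cyp4f39, 0.0098 for Ltb4r1, 0.0019 for Mgst3, -0.036 for Pla2g6, 0.010 for Zfp799, -0.010 for Zfp811 and -0.049 for Zfp871. With 1 array left out, values on both sides of 0 were found for Cyp4f39 (-0.11 to 0.054), Cyp4f40 (-0.040 to 0.28), Cysltr1 (-0.076 to 0.022), Mgst3 (-0.084 to 0.021), Olfr372 (-0.013 to 0.42), Pglyrp2 (-0.12 to 0.052), Zfp811 (-0.040 to 0.089) and Zfp871 (-0.022 to 0.067). Of all genes 1479 passed; 494 did with a prior variance without a trend, 637 with the choroid plexus markers in the model, 236 without the arrays with Ttr above 10, 491 at an adjusted p under 0.01, 2313 under 0.1, and 565 to 1276 with 1 array left out. Of the members other than Cyp4f13, 1 (Cyp4f15) passed with dim genes left out and 1 with the replicate block, and 0 to 1 with 1 array left out. Among the flanking genes 1 passed (Fcho1); 0 did with the choroid plexus covariate and 0 without the arrays with Ttr above 10, 3 with the replicate block (Fcho1, Zfp870 and Cryaa), and 1 to 2 with 1 array left out. Of the pathway genes 3 passed; 0 did without a trend, 0 without the arrays with Ttr above 10, 5 with the replicate block and 1 to 2 with 1 array left out. Of the Cyp genes 6 passed; 3 did without a trend, 2 without the arrays with Ttr above 10 and 3 to 4 with 1 array left out. Settings with fewer arrays have less to estimate the spread from; the cause of the other shifts was not tested. The same-numbered arrays of the groups did not deviate together (correlations of 0.01, 0.03 and -0.13), so the replicate numbers were not taken as pairs; with the replicate block 1801 genes passed. Median centring and quantile normalization moved the median change of all genes from -0.0028 to -0.02 and -0.01.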

Other observations

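AA388235, a long noncoding RNA gene, stood out in a wider look along chromosome 17 that was added after the data were seen. Among the 50 tested genes on each side of the cluster, 5 rose and 5 fell of 100 (limma). Of all genes, 6.67% were called in either direction and 2.72% were called higher. On the side of Cyp4f13 the 4 called genes all rose: Adamts10, a secreted metalloprotease of microfibrils, by 0.35 (SE 0.09, adjusted p = 0.0466), the unconventional myosin gene Myo1f by 0.48 (SE 0.11, adjusted p = 0.0364), Angptl4, an inhibitor of lipoprotein lipase, by 0.21 (SE 0.05, adjusted p = 0.0391), and AA388235, 42 tested genes away from Cyp4f13, by 1.40 (SE 0.17, adjusted p = 0.00189). AA388235 passed in all 16 other settings, while Adamts10 and Angptl4 each passed in 5 of them and Myo1f in 8. On the side of Cyp4f39 Glo1, a detoxifying glyoxalase, rose by 0.28 and 5 genes fell, the most by -0.44 (Pde9a, a phosphodiesterase, SE 0.06, adjusted p = 0.00269).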
